A study of Mus musculus with 18 samples.

Results

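The 6 ATP-binding cassette (ABC) efflux pump genes Abcb1a, Abcb1b, Abcg2, Abcc1, Abcc4 and Abca1 were followed across 18 RNA-seq libraries of mouse brain endothelial cells. They were found by symbol among the 57010 Ensembl genes counted, and all 6 passed the filter on low counts that left 17531 genes. All mice carried floxed Pdcd10 (fl/fl), the gene for the scaffold protein CCM3, together with Aldh1l1-EGFP/Rpl10a, an astrocyte ribosome tag. KO mice also carried Slco1c1-iCreERT2, a Cre recombinase that tamoxifen switches on in brain endothelium, and received 50 µg of 4-hydroxytamoxifen on postnatal day 1. Flox mice were littermates that lacked the Cre. A dose is recorded for KO libraries only, and whether flox mice were injected is not stated in the sources used here. Effects of Cre or of the injection were therefore not separated from those of Pdcd10 loss. Cre carriers that were never injected also served as controls, but the labels do not say in which libraries. RNA was collected at P57 from mice kept at 21% O2 (normoxia; 4 flox and 5 KO libraries) or at 12% O2 for 7 days (hypoxia; 4 flox and 5 KO libraries). Nothing in the labels says how many animals stand behind a library, so p-values measure the spread between these libraries.

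ABC pumps use ATP to move compounds across membranes. In the capillary endothelium of the blood-brain barrier, P-glycoprotein (encoded in rodents by Abcb1a and its paralog Abcb1b) and the breast cancer resistance protein (Abcg2) sit in the membrane facing the blood and return drugs to it. The multidrug resistance-associated proteins Abcc1 and Abcc4 carry organic anions and conjugates, and Abca1 passes cholesterol and phospholipid to lipid-poor apolipoproteins.

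The stretches upstream of 3 genes are printed here: the paralogs Abcb1a and Abcb1b, whose transcripts rose and fell together from library to library, and Abca1, the pump gene that was higher after hypoxia; they were chosen with these values known. They come from RefSeq on GRCm38.p6, are written 5′ to 3′ on the gene's strand in lower case, and end before the first annotated start site. Capitals mark the 5-letter core ACGTG or GCGTG on either strand (where a core falls inside CACGTG, its matches on both strands overlap and the whole run is in capitals). These are core letters of hypoxia response elements, and GCGTG is also the core of sites for the aryl hydrocarbon receptor.
Abcb1a, chr5:8566841-8567090, plus strand: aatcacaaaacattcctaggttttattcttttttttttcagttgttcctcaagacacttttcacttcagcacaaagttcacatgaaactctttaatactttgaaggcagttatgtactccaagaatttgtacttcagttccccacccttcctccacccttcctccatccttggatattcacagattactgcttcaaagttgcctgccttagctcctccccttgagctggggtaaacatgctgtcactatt
Abcb1b, chr5:8797897-8798146, plus strand: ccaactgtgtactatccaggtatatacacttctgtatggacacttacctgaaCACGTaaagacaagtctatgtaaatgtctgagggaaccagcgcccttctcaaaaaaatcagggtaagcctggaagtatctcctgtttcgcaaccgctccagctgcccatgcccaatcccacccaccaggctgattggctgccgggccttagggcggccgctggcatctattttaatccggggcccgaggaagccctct
Abca1, chr4:53159989-53160145, minus strand: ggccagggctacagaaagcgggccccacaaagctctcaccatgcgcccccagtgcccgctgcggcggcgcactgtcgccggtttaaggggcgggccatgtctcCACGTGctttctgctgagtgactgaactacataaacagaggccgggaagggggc
The Abcb1a stretch held no core and no CpG, against a median of 6 CpG over the 32851 RefSeq windows of 250 bases. The Abcb1b stretch held 9 CpG and 1 core, 198 bases before the start. In Abca1, CACGTG lay 147 bases before the start of the table's transcript, and the full 250-base window held 20 CpG. ACGTG occurs on either strand in 16.57% of all the windows, GCGTG in 28.16% and CACGTG, which contains ACGTG, in 6.021%. Of the other members, Abcg2 had 3 windows, none with any of these letters, and Abcc4 had 2. The Abcc4 window with 35 CpG also held CACGTG, 205 bases before its start, and 2 GCGTG. The other Abcc4 window held none of these letters. These matches describe letters, and binding was not measured.

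Each library held between 17.9 and 31.2 M counts. All 7 endothelial markers were detected in every library, and their summed level lay between 8572 and 13305 CPM (read counts scaled to TMM-adjusted library totals). Normoxia flox 4 and normoxia KO 4 stood apart, with summed neuron markers at 1790 and 1012 CPM against at most 105 CPM elsewhere, and results that rest on them are given with and without them. Oligodendrocyte markers were present in every group, with sums of 796 to 4512 and 509 to 4675 CPM in normoxia flox and KO. In hypoxia flox and KO the sums were 510 to 2238 and 587 to 4330 CPM. None of these 6 markers was called by genotype or oxygen. By Xist and Y-linked transcripts all 4 hypoxia flox libraries were of Y-linked pattern and 4 of 5 hypoxia KO libraries of Xist pattern, while normoxia flox 3, normoxia flox 4 and normoxia KO 4 held both. Pdcd10 fell in KO, by 1.08 ± 0.14 on the log2 scale in normoxia (SE, edgeR adjusted p = 5.02e-05) and by 1.17 ± 0.14 in hypoxia (adjusted p = 2.87e-05).

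The 6 genes spanned a wide range of levels per transcript length. On the deposited RPKM scale, Abcb1a averaged 391 ± 64.2 (SD, n = 18), rank 76 among the tested genes. Abcc4 followed at 67.0 ± 14.3 RPKM and Abcg2 at 63.6 ± 13.3 RPKM, which overlapped. Abca1 averaged 24.5 ± 7.63 RPKM, Abcb1b 11.6 ± 1.58 RPKM and Abcc1 1.67 ± 0.379 RPKM, rank 11042. P-glycoprotein transcripts were mostly Abcb1a: its RPKM was 33.6 ± 1.82 times that of Abcb1b (SD, n = 18; range 29.9 to 37.7). Abcb1a alone made up 69.9 ± 1.35% of the summed RPKM of the 6 genes, between 67.0% and 72.4% in single libraries. The mean share of Abca1 in that sum differed with oxygen, from 2.96 ± 0.477% (SD, n = 4) in normoxia flox and 3.53 ± 0.436% (SD, n = 5) in normoxia KO to 4.89 ± 1.01% (SD, n = 4) in hypoxia flox and 6.34 ± 1.44% (SD, n = 5) in hypoxia KO. The mean share of Abcg2 differed the other way, from 12.5 ± 0.317% and 12.2 ± 0.303% in normoxia flox and KO to 10.9 ± 0.632% and 9.83 ± 0.487% in hypoxia flox and KO. For both genes the shares at the 2 oxygen levels did not overlap in either genotype. No test was run on shares, and shares of the same sum depend on each other. The level of Abcg2 itself did not pass with oxygen (edgeR adjusted p = 0.404 in flox and 0.255 in KO). The 2 paralogs share sequence (15.52% of the 50-base words in the Abcb1a transcript also occur in Abcb1b, and 18.04% the other way), and how reads that fit both were counted is not given in the sources used here. Their separate values are therefore less certain than those of the other 4 genes.

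**Figure D1:**
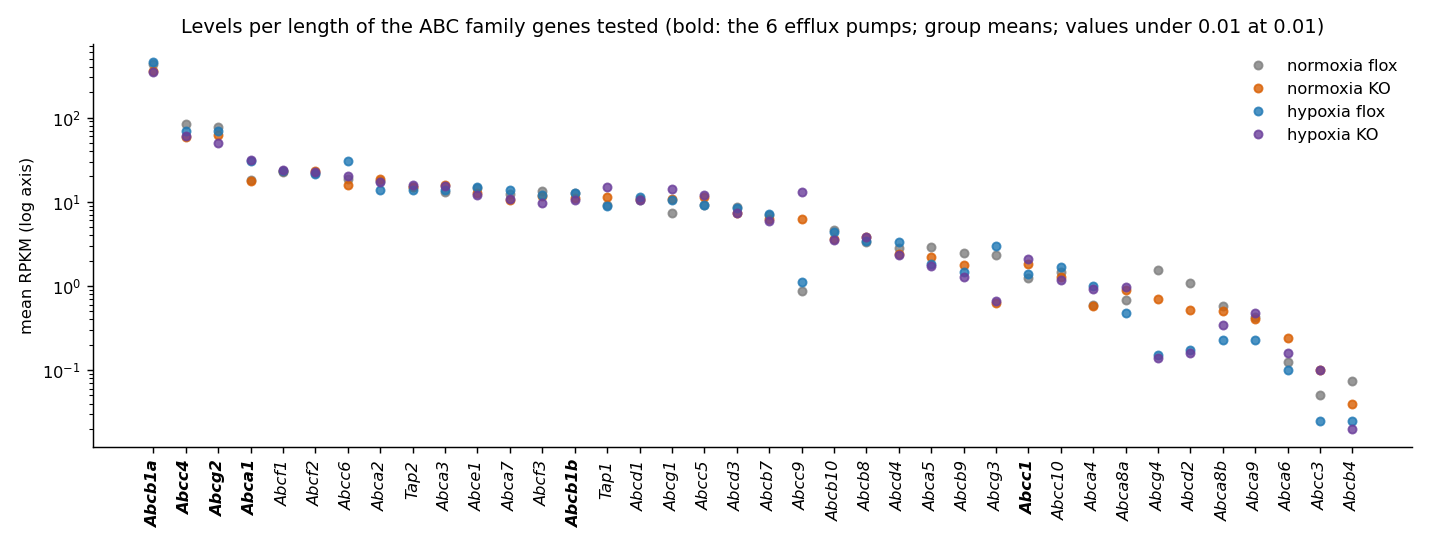
Mean RPKM (log axis) of the 38 ABC family genes tested, sorted by level, with 1 point per group and the 6 efflux pump genes in bold. Abcb1a is the highest of the family, Abcc4, Abcg2 and Abca1 follow it, and Abcc1 lies among the low genes.

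The first question was whether deletion of Pdcd10 in brain endothelium goes with other pump transcript levels in room air. Of the 6 genes, 1 rose in KO and none of the others passed the test (edgeR quasi-likelihood F test, Benjamini-Hochberg adjusted p under 0.05). Over all genes 16.6% passed, 9.54% higher and 7.03% lower, so 1 of 6 is near the background. The median log2 fold change of the 6 was -0.17, against -0.02 over all genes tested. In bulk RNA, fewer cells of a type and less RNA per cell cannot be told apart.

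Abcc1, an exporter of glutathione conjugates and leukotrienes, was the gene that rose. Its levels in normoxia flox were 18.2, 16.1, 16.1 and 23.2 CPM, and in normoxia KO 26.1, 27.1, 30.7, 28.9 and 29.6 CPM. Every KO library was above every flox library, and the highest flox library, flox 4, was one of those with neuron markers. The means were 18.4 ± 3.32 CPM (SD, n = 4) and 28.5 ± 1.87 CPM (SD, n = 5), a 1.55-fold difference (95% interval 1.31 to 1.83; log2 fold change 0.63 ± 0.11, SE; edgeR adjusted p = 0.000906). Over all genes, 8.59% had every KO library above every flox library. The rise passed in 32 of 33 alternative analyses, including without the 2 neuron-marker libraries (0.69 ± 0.11, adjusted p = 0.000284) and with library size set by the endothelial markers (0.72 ± 0.20, adjusted p = 0.0213). With the replicate numbers as a block it was 0.53 ± 0.12 (adjusted p = 0.0161, with hypoxia libraries kept in the fit) or 0.51 ± 0.13 (adjusted p = 0.101, from 6 libraries alone, where 701 genes passed in place of 2905).

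Markers of other cell types and vessel segments moved with genotype in normoxia. Of 7 smooth muscle markers 6 fell, and their sum ran from 496 to 943 CPM in flox and from 151 to 179.9 CPM in KO. Of 10 arterial markers 8 fell, with sums of 1659 to 2385 and 694 to 1039 CPM. The sum of the 8 venous markers was higher in KO (1859 to 3177 against 4527 to 5857 CPM), although only 1 marker passed. Of 9 pericyte markers 3 rose and of 6 tested lymphocyte markers 3 rose, with sums that overlapped between the genotypes (335 to 1175 and 699 to 1322 CPM for pericytes, 2.97 to 13.3 and 7.61 to 19.6 CPM for lymphocytes). None of these markers was at 0 in any normoxia library apart from the lymphocyte genes Cd3e, Cd3d and Nkg7 in some flox libraries. Among 6 capillary markers 1 rose and 2 fell. The capillary sums overlapped, at 8478 to 13124 CPM in flox and 7136 to 9021 CPM in KO. Of 6 fibroblast markers 1 rose, and of 7 endothelial markers 1 rose and 1 fell. The part of all these markers in the pump values was not tested.

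Levels of the drug pumps Abcb1a, Abcb1b and Abcg2 were lower on average in normoxia KO without passing the test. Abcb1a stood at 2510, 2393, 2532 and 1701 CPM in flox and at 2048, 2311, 1683, 1892 and 2059 CPM in KO. The low flox library was again flox 4, which lay inside the range of the KO libraries, so the groups overlapped. The log2 fold change of Abcb1a was -0.19 ± 0.12 (0.875-fold, 95% interval 0.738 to 1.04; edgeR adjusted p = 0.299). Its paralog Abcb1b stood at 108, 107, 106 and 78.2 CPM in flox and between 71.9 and 102 CPM in KO, a log2 fold change of -0.15 ± 0.10 (0.904-fold, 0.775 to 1.05; adjusted p = 0.402). Abcg2 stood at 662, 638, 715 and 454 CPM in flox and at 527, 594, 448, 518 and 512 CPM in KO. Flox 4 was lowest among flox for each of the 3 drug pumps. The log2 fold change of Abcg2 was -0.25 ± 0.12 (0.842-fold, 0.705 to 1.01; adjusted p = 0.193).

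Abcc4, which exports organic anions and cyclic nucleotides, lay nearest to the threshold among the genes that missed it. It stood at 497, 592, 608 and 373 CPM in normoxia flox and at 349, 468, 356, 396 and 386 CPM in normoxia KO. Flox 4, at 373 CPM, lay inside the range of the KO libraries, so the groups overlapped. The log2 fold change was -0.40 ± 0.14 (0.756-fold, 95% interval 0.617 to 0.925; edgeR adjusted p = 0.0562). It passed in 9 of the 33 alternatives, among them DESeq2 (-0.43, adjusted p = 0.0212) and limma on RPKM (-0.47, adjusted p = 0.0465). Abca1 differed little, with 183 ± 25.2 CPM (SD, n = 4) in flox and 191 ± 29.3 CPM (SD, n = 5) in KO (log2 fold change 0.06 ± 0.16; adjusted p = 0.828), an interval of 0.83 to 1.31 fold.

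Without normoxia flox 4 and normoxia KO 4, 5 of the 6 genes passed in normoxia, 1 higher and 4 lower. Abcb1a was then at -0.29 ± 0.08 (edgeR adjusted p = 0.0173), Abcb1b at -0.21 ± 0.07 (adjusted p = 0.0334), Abcg2 at -0.36 ± 0.09 (adjusted p = 0.0123) and Abcc4 at -0.54 ± 0.12 (adjusted p = 0.00549). In that fit 21.5% of all genes passed, 10.3% higher and 11.2% lower. When 1 library was left out, 2085 to 3645 of all genes passed, against 2905 in the main fit. Leaving out flox 4 alone gave 4 of 6 pump genes, with Abcb1a at -0.33 and Abcc4 at -0.56. The endothelial marker sum moved with these genes: it was 11845 ± 2198 CPM (SD, n = 4) in normoxia flox, with flox 4 lowest at 8572, and 10533 ± 436 CPM (SD, n = 5) in normoxia KO. Scaled to that sum in place of all counts, Abcb1a was at -0.03 ± 0.07 (adjusted p = 0.811), Abcb1b at 0.01 ± 0.08 (adjusted p = 0.944), Abcg2 at -0.08 ± 0.08 (adjusted p = 0.552) and Abcc4 at -0.24 ± 0.09 (adjusted p = 0.102). That scaling moved the median of all genes from -0.02 to 0.10 and the calls from 1673 higher and 1232 lower to 1937 and 606. All 4 genes stayed below the shifted median, but a change of library size moves all genes by a similar amount. Their place relative to the median is therefore no test, and the part of endothelial content was not tested. As a share of the 7 endothelial markers, Abcb1a came to 19.3 ± 0.460% (SD, n = 4) in normoxia flox and 18.9 ± 1.60% (SD, n = 5) in normoxia KO.

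**Figure D2:**
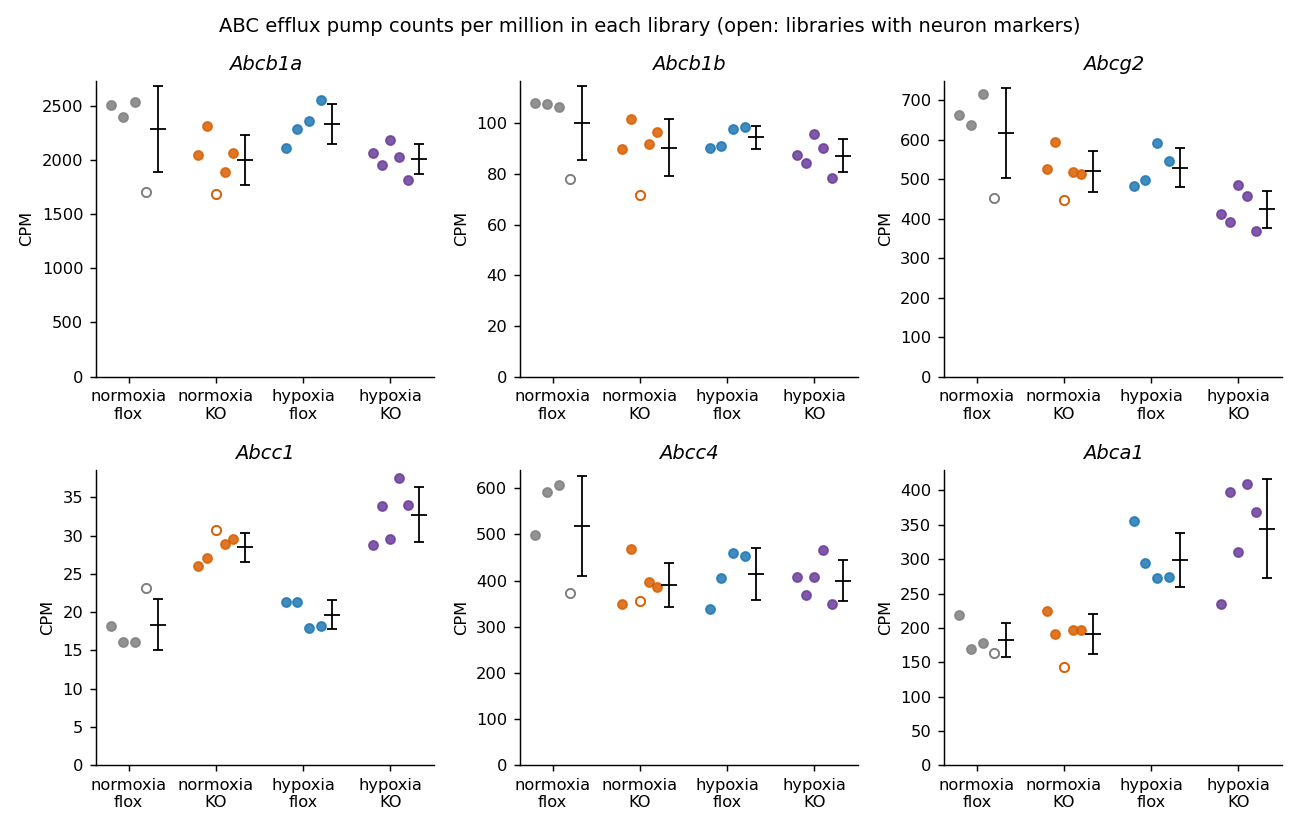
CPM on TMM-scaled totals in each of the 18 libraries for the 6 genes, with the mean and SD of each group beside the points and open points for normoxia flox 4 and normoxia KO 4. Abcc1 separates by genotype, between 16.1 and 23.2 CPM in flox and between 26.1 and 37.5 CPM in KO, and Abca1 separates by oxygen.

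The same genotype comparison in hypoxia asks whether the difference holds at low oxygen. Again Abcc1 rose and the other 5 genes did not pass, against 22.3% of all genes called (11.4% higher and 11% lower). Abcc1 stood at 21.4, 21.3, 17.9 and 18.2 CPM in hypoxia flox and at 28.7, 33.8, 29.6, 37.5 and 34.0 CPM in hypoxia KO. Every KO library was above every flox library, as for 12% of all genes. The fold was 1.66 (95% interval 1.41 to 1.96; log2 fold change 0.73 ± 0.11, edgeR adjusted p = 0.000284), and it passed in all 32 alternatives (adjusted p from 5.7e-08 to 0.0146). The Xist pattern was seen in 4 of 5 KO libraries and in no flox library, so genotype and sex cannot be fully told apart in hypoxia. In a fit that adjusts for Y-linked and Xist levels, Abcc1 was at 0.77 ± 0.14 (adjusted p = 0.00173). Markers of other cells moved with genotype here as well. Of 9 pericyte markers (none at 0) 6 rose, with sums of 179 to 970 CPM in flox and 1186 to 2137 CPM in KO. Of 6 tested lymphocyte markers 5 rose, with sums over all 8 of 2.40 to 10.3 and 14.8 to 38.3 CPM; Cd3d, Cd3e, Cd8a or Nkg7 was at 0 in single libraries. Smooth muscle markers fell in 5 of 7 (322 to 618 and 130.2 to 268 CPM summed) and arterial markers in 9 of 10 (1031 to 1627 and 305 to 634 CPM). Astrocyte markers fell in 1 of 6 (167 to 242 and 88.4 to 144 CPM). None of these 5 sums overlapped between the genotypes. Further markers were called too, with sums that overlapped. Of choroid plexus and ependymal markers 2 of 5 rose, of fibroblast markers 2 of 6 and of microglia and macrophage markers 1 of 10. Of neuron markers 1 of 7 fell. Among 6 capillary markers 1 rose and 2 fell (9493 to 12074 CPM summed in flox and 6898 to 9589 CPM in KO). Of venous markers 1 of 8 fell, and of endothelial markers 1 of 7 rose. The part of all these markers in the Abcc1 difference was not tested.

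Abcg2 was the pump gene with the lowest adjusted p among those that missed the threshold in hypoxia. It stood at 483, 498, 591 and 547 CPM in flox and at 413, 392, 486, 456 and 370 CPM in KO. Only KO 3, at 486 CPM, reached into the flox range. The log2 fold change was -0.32 ± 0.12 (0.800-fold, 95% interval 0.669 to 0.956; edgeR adjusted p = 0.0678). Abcg2 passed in 7 of 32 alternatives, among them DESeq2 (-0.32, adjusted p = 0.0485) and without normoxia flox 4 and normoxia KO 4 (-0.34 ± 0.08, adjusted p = 0.00633), and adjusted for Y-linked and Xist levels it was at -0.23 ± 0.15 (adjusted p = 0.326). Abcb1a was at -0.21 ± 0.12 (0.863-fold, 0.728 to 1.02; adjusted p = 0.208), with 2106 to 2553 CPM in flox and 1811 to 2186 CPM in KO. Without the 2 neuron-marker libraries it passed (-0.23 ± 0.07, adjusted p = 0.0241; 3 of 6 members and 31.6% of all genes did, 15.3% higher and 16.3% lower). Abcb1b was at -0.11 ± 0.11 (adjusted p = 0.486) and Abca1 at 0.20 ± 0.16 (adjusted p = 0.392). Abcc4 was at -0.05 ± 0.14 (0.964-fold, 0.787 to 1.18; adjusted p = 0.838), with 414 ± 56.1 CPM (SD, n = 4) in flox and 400 ± 44.5 CPM (SD, n = 5) in KO.

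**Figure D3:**
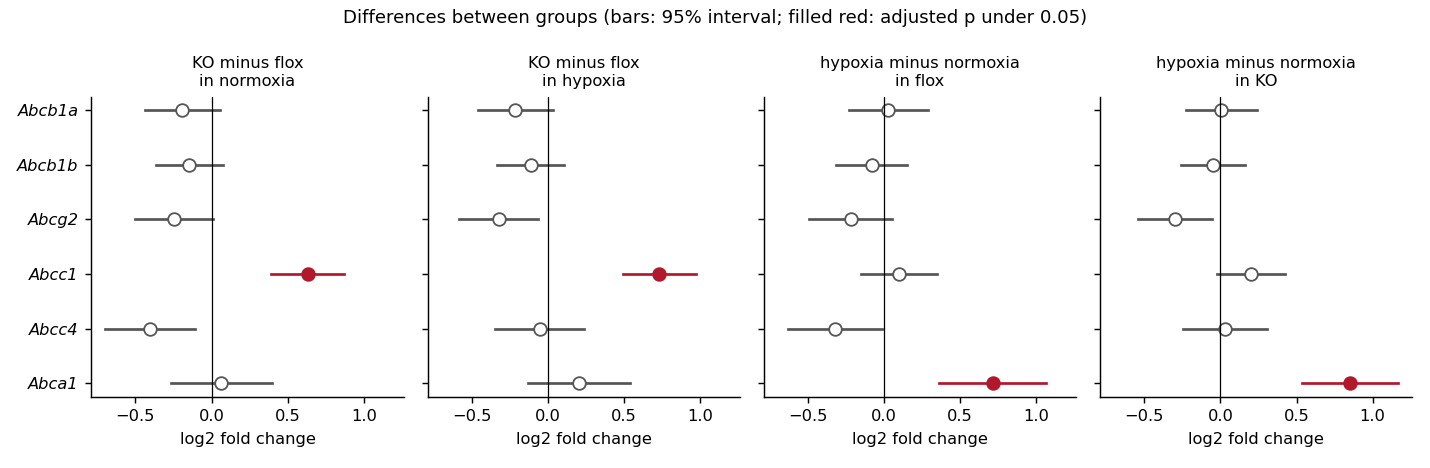
Log2 fold change of the 6 genes in each of the 4 comparisons, with 95% intervals from the edgeR model and filled red points for an adjusted p under 0.05. Abcc1 is filled in both genotype comparisons (0.63 and 0.73), Abca1 in both oxygen comparisons (0.71 and 0.85), and no other point is filled.

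Hypoxia was then compared with normoxia within each genotype. Abca1 rose in both, and no other member passed in either, where 2.81% of all genes passed in flox (2.34% higher, 0.462% lower) and 1.48% in KO (0.713% higher, 0.77% lower). In flox, Abca1 went from 219, 170, 178 and 163 CPM to 355, 295, 272 and 274 CPM. All hypoxia libraries were above all normoxia libraries, as for 5.36% of all genes, and the means were 183 ± 25.2 and 299 ± 39.0 CPM (SD, n = 4 each). The fold was 1.64 (95% interval 1.28 to 2.09; log2 fold change 0.71 ± 0.17, edgeR adjusted p = 0.0256). In KO, Abca1 went from 225, 191, 144, 197 and 198 CPM to 235, 398, 311, 410 and 369 CPM. The groups again did not overlap, as for 1.69% of all genes in that direction, and hypoxia KO 1 at 235 CPM stood only just above normoxia KO 1 at 225 CPM. The fold was 1.81 (1.45 to 2.25; 0.85 ± 0.15, adjusted p = 0.00992), with means of 191 ± 29.3 and 345 ± 72.1 CPM (SD, n = 5 each).

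In flox the call of Abca1 was lost when any of 5 libraries was left out (normoxia flox 2, 3 or 4, or hypoxia flox 2 or 3), with log2 fold changes between 0.61 and 0.71 and adjusted p from 0.0725 to 0.111. It was also lost when Y-linked and Xist levels were adjusted for (0.61 ± 0.17, edgeR adjusted p = 0.103), with library size set by the endothelial markers (0.69 ± 0.19, adjusted p = 0.088) and with a block on the replicate numbers. All 4 hypoxia flox libraries but only 1 normoxia flox library were of Y-linked pattern alone, so oxygen and sex cannot be fully told apart in flox. In KO Abca1 passed in 30 of 31 alternatives, the exception being a block on the replicate numbers. The immediate early genes, which respond within minutes to handling of cells, moved with Abca1 inside the groups. Across the 18 libraries, after subtracting group means, their mean log2 CPM and that of Abca1 had r = 0.75. Hypoxia KO 1, the lowest hypoxia KO library for Abca1, also had the lowest summed immediate early level of its group (2992 CPM against 22999 CPM or more in the other 4). With that level as a covariate, Abca1 was at 0.77 ± 0.12 (adjusted p = 0.000866) in flox and at 0.80 ± 0.11 (adjusted p = 0.00136) in KO. None of 5 erythroid markers passed with oxygen in either genotype by edgeR, DESeq2 or limma, with 4 in flox and 0 in KO at an unadjusted edgeR p under 0.05. Their sums ran from 1361 to 2730 CPM in normoxia flox and from 3542 to 4830 CPM in hypoxia flox, without overlap, and from 1161 to 5019 and 2609 to 8007 CPM in KO, with overlap. Arterial sums, given above, were lower after hypoxia without overlap in both genotypes, with 1 of 10 markers called lower in flox and 5 of 10 in KO. The part of either in the Abca1 difference was not tested.

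None of the drug pumps passed with oxygen. Abcb1a was at 0.03 ± 0.12 in flox (1.02-fold, 95% interval 0.852 to 1.22; edgeR adjusted p = 0.953) and at 0.01 ± 0.11 in KO (1.00-fold, 0.856 to 1.18; adjusted p = 0.988). Abcb1b was at -0.08 ± 0.11 (0.803 to 1.11 fold; adjusted p = 0.796) and -0.05 ± 0.10 (0.835 to 1.12 fold; adjusted p = 0.861). Abcg2 was lower on average after hypoxia in both genotypes, at -0.22 ± 0.13 in flox (0.711 to 1.04 fold; adjusted p = 0.404) and -0.30 ± 0.12 in KO (0.688 to 0.965 fold; adjusted p = 0.255). The interval in KO lay below 1. Abcg2 passed in KO with library size set by the endothelial markers (-0.38 ± 0.07, adjusted p = 0.0188) and with the first component of non-endothelial markers, on which the 2 neuron-marker libraries stand apart, as a covariate (-0.36 ± 0.08, adjusted p = 0.0344). In flox it passed without the 2 neuron-marker libraries (-0.35 ± 0.09, adjusted p = 0.0495). As a percentage of the summed CPM of the 7 endothelial markers it ran from 5.03 to 5.37 in normoxia flox and 4.18 to 4.71 in hypoxia flox, and from 4.39 to 5.38 and 3.47 to 4.26 in KO, without overlap in either genotype. How many of all genes separate on that scale was not counted. In CPM, Abcg2 overlapped between normoxia and hypoxia in flox (454 to 715 and 483 to 591) and in KO (448 to 594 and 370 to 486). Abcc4 was at -0.32 ± 0.15 in flox (0.646 to 0.992 fold; adjusted p = 0.264) and 0.03 ± 0.13 in KO (adjusted p = 0.941), and Abcc1 at 0.10 ± 0.12 (adjusted p = 0.766) and 0.20 ± 0.10 (adjusted p = 0.400).

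Whether the genotype difference changed with oxygen was tested by the interaction of both factors. No pump gene passed (edgeR adjusted p 0.988 to 0.995), none had an unadjusted p under 0.05, and DESeq2 and limma called none either, against 0.445% of all genes. Abcc4 had the largest interaction estimate, 0.35 ± 0.20 on the log2 scale (95% interval -0.06 to 0.77). For Abcc1 it was 0.10 ± 0.16 (-0.23 to 0.44) and for Abca1 0.14 ± 0.22 (-0.33 to 0.61). The genotype difference of Abcc4 is thus not shown to change with oxygen.

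Ordered by mean CPM, the 4 groups fell differently for each gene, and neighbours in the order mostly overlapped. Abcc1 ran from hypoxia KO (32.7) over normoxia KO (28.5) and hypoxia flox (19.7) to normoxia flox (18.4), with the break without overlap between the genotypes. Abca1 ran from hypoxia KO (345) over hypoxia flox (299) and normoxia KO (191) to normoxia flox (183), with the break between the oxygen levels. Abcg2 ran from normoxia flox (617) over hypoxia flox (530) and normoxia KO (520) to hypoxia KO (423), and all neighbours overlapped. For Abcb1a (2327 in hypoxia flox, 2284 in normoxia flox, 2007 in hypoxia KO and 1998 in normoxia KO), Abcb1b and Abcc4 all neighbours overlapped too.

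Beneath the group differences, 4 of the genes moved together from library to library. Over the 18 libraries Abcb1a and Abcb1b had r = 0.91, Abcb1b and Abcg2 0.84, Abcg2 and Abcc4 0.78, Abcb1a and Abcg2 0.77 and Abcb1a and Abcc4 0.74 (log2 CPM). With the group means subtracted, Abcb1a and Abcb1b had r = 0.94 and Abcb1a and Abcg2 0.92. Abcc1 ran the other way, between -0.79 and -0.62 with these 4, and Abca1 ran apart, at 0.04 with Abcb1a. The libraries share the scaling and the cell mixture, and in these within-group deviations the summed endothelial markers had r = 0.89 with Abcb1a, 0.85 with Abcg2, 0.81 with Abcc4, 0.78 with Abcb1b, -0.76 with Abcc1 and 0.05 with Abca1. How far reads that fit both paralogs enter their r was not tested.

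**Figure D4:**
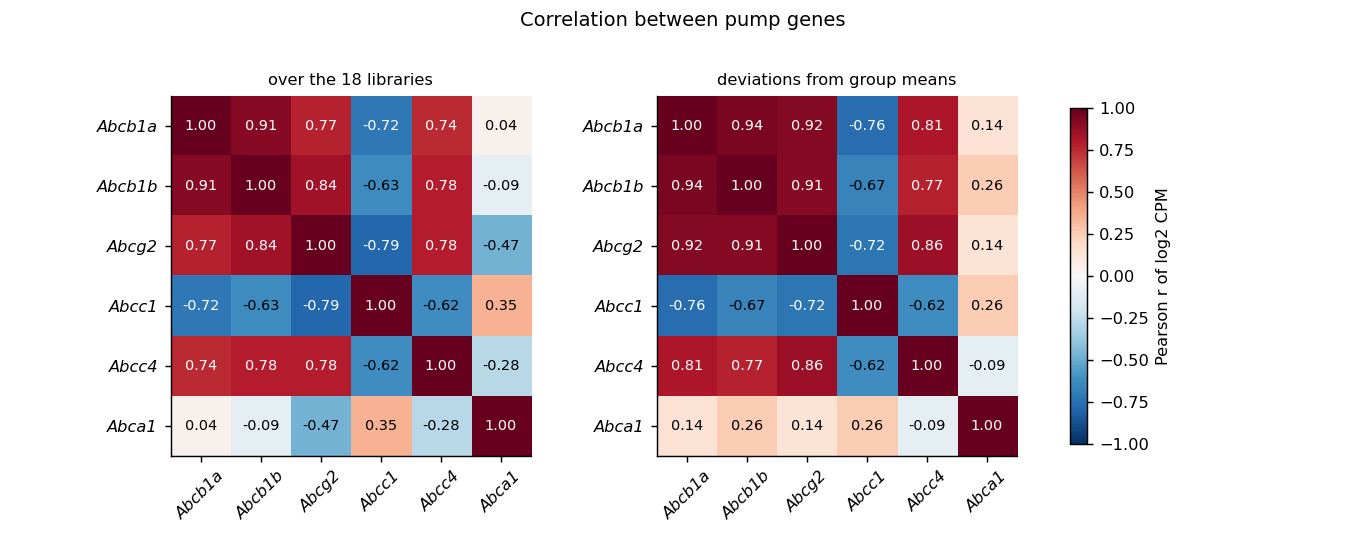
Pearson r of log2 CPM between the 6 genes, over the 18 libraries on the left and for deviations from group means on the right. Abcb1a, Abcb1b, Abcg2 and Abcc4 form a positive block (0.74 to 0.91 on the left), Abcc1 is negative with all 4, and Abca1 lies between -0.47 and 0.35 with the others.

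Among 13178 genes, those most like each pump in level over the 18 libraries were named by Pearson r. For Abcb1a they were Tgfbr3 (0.92), a co-receptor of TGF-beta, Abcb1b (0.91) and Slco1a4 (0.91), an organic anion transporter of the blood-brain barrier. For Abcb1b they were the tight junction scaffold gene Tjp1 (0.92), Abcb1a (0.91) and Yap1 (0.90). Abcg2 was closest to Atp10a (0.94), a phospholipid flippase gene, Sgms1 (0.93) and Pkp4 (0.93). Abcc4 was closest to Serinc3 (0.89), Tns1 (0.88) and Il6st (0.86). Abcc1 was closest to Lgals1 (0.98), Gm12537 (0.97) and the glycolytic gene Gapdh (0.96). Abca1 was closest to Itga5 (0.92), the fibronectin receptor subunit, Nek6 (0.90) and Ptprk (0.90). The last 2 had r of 0.48 and 0.64 with Abca1 inside the groups, where Itga5 had 0.80.

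Other ABC genes were next compared with the 6 pumps, and 32 of 47 were tested. In KO against flox, 2 rose and 1 fell in normoxia and 4 rose and 4 fell in hypoxia, or 3 and 8 of 32 where 16.6% and 22.3% of all genes passed. Abcc5, an exporter of cyclic nucleotides related to Abcc4, rose in both, by 0.38 ± 0.12 (edgeR adjusted p = 0.0326) and 0.57 ± 0.12 (adjusted p = 0.00259). Abcg3, a rodent relative of Abcg2, fell by 1.89 ± 0.24 (adjusted p = 4.2e-05) and by 2.02 ± 0.24 (adjusted p = 2.83e-05), from 8.16 ± 2.78 CPM (SD, n = 4) to 2.20 ± 0.291 CPM (SD, n = 5) in normoxia. Abcc9, a potassium channel subunit and a pericyte marker, rose by 2.96 ± 0.57 and 3.70 ± 0.58 (adjusted p = 0.00183 and 0.00040), beside the pericyte sums given above. Abcc10 fell in hypoxia (-0.38 ± 0.09, adjusted p = 0.0062). With hypoxia in flox, where 2.81% of all genes passed, Abcc6 rose (0.69 ± 0.15, adjusted p = 0.0189) and Abca5 fell (-0.76 ± 0.18, adjusted p = 0.025). In KO no other ABC gene passed with hypoxia by edgeR, DESeq2 or limma, and 4 had an unadjusted edgeR p under 0.05. Abcg1, the usual partner of Abca1 in cholesterol efflux, was at 0.46 ± 0.24 in flox (adjusted p = 0.321) and 0.42 ± 0.21 in KO (adjusted p = 0.383) with hypoxia.

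Receptors and regulators known to set pump transcription gave 15 tested genes of 18; the xenobiotic receptor genes Nr1i2 and Nr1i3 and Vdr were under the filter. In KO, 3 rose and 5 fell in normoxia, and 2 rose and 4 fell in hypoxia, where 16.6% and 22.3% of all genes passed. Hif1a, the oxygen-regulated factor, rose by 1.09 ± 0.12 (edgeR adjusted p = 1.2e-05) and 1.04 ± 0.12 (adjusted p = 2.53e-05), whereas its endothelial relative Epas1 fell by 0.81 ± 0.13 (adjusted p = 0.000307) and by 0.55 ± 0.13 (adjusted p = 0.00631). Ppard fell in both (-0.76 ± 0.14 and -0.66 ± 0.14; adjusted p = 0.000905 and 0.00258), Rxra, a partner of nuclear receptors, rose by 0.52 ± 0.07 in normoxia (adjusted p = 6.58e-05), and Ahr, whose ligands induce pump genes, fell by 1.20 ± 0.20 in hypoxia (adjusted p = 0.000621). Both also passed, in the same direction, in the other oxygen condition (Rxra 0.28 ± 0.07 and Ahr -0.94 ± 0.20). With oxygen, none of the 15 passed by edgeR in either genotype (3 in flox and 5 in KO had an unadjusted p under 0.05), and DESeq2 called 1 in KO.

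Of the targets of NRF2 and the aryl hydrocarbon receptor, 10 of 12 were tested; 1 rose and 1 fell in normoxia KO and 3 rose in hypoxia KO, near the 16.6% and 22.3% of all genes. Nqo1, a quinone reductase, rose by 1.54 ± 0.19 (edgeR adjusted p = 3.41e-05) and 0.68 ± 0.19 (adjusted p = 0.0187), and it fell with hypoxia in KO (-0.73 ± 0.17, adjusted p = 0.0449). Gclm fell in normoxia (-0.32 ± 0.09, adjusted p = 0.0258), and Srxn1 (0.91 ± 0.23, adjusted p = 0.00949) and Txnrd1 (0.47 ± 0.14, adjusted p = 0.0283) rose in hypoxia. Of the cholesterol efflux genes and targets of the liver X receptors around Abca1, 13 of 14 were tested and none passed with oxygen by edgeR, DESeq2 or limma (1 in flox and 2 in KO had an unadjusted edgeR p under 0.05). The receptor gene Nr1h3 (0.53 ± 0.18, adjusted p = 0.0424) and the target Arl4c (1.25 ± 0.39, adjusted p = 0.0316) rose in hypoxia KO against hypoxia flox. In normoxia edgeR called none of the 13, with 4 at an unadjusted p under 0.05, DESeq2 called 2 and limma 3. Of 6 tested genes that anchor P-glycoprotein in the membrane, Ezr (1.22 ± 0.15 and 1.43 ± 0.16; adjusted p = 3.75e-05 and 1.16e-05) and Msn (0.34 ± 0.10 in both; adjusted p = 0.028 and 0.0216) rose in KO in normoxia and hypoxia. Rdx, whose product radixin ties P-glycoprotein to actin, fell (-0.38 ± 0.09 and -0.40 ± 0.09, edgeR adjusted p = 0.00858 and 0.00474). The remaining 3 of these 6 passed in neither condition, where 16.6% and 22.3% of all genes passed.

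**Figure D5:**
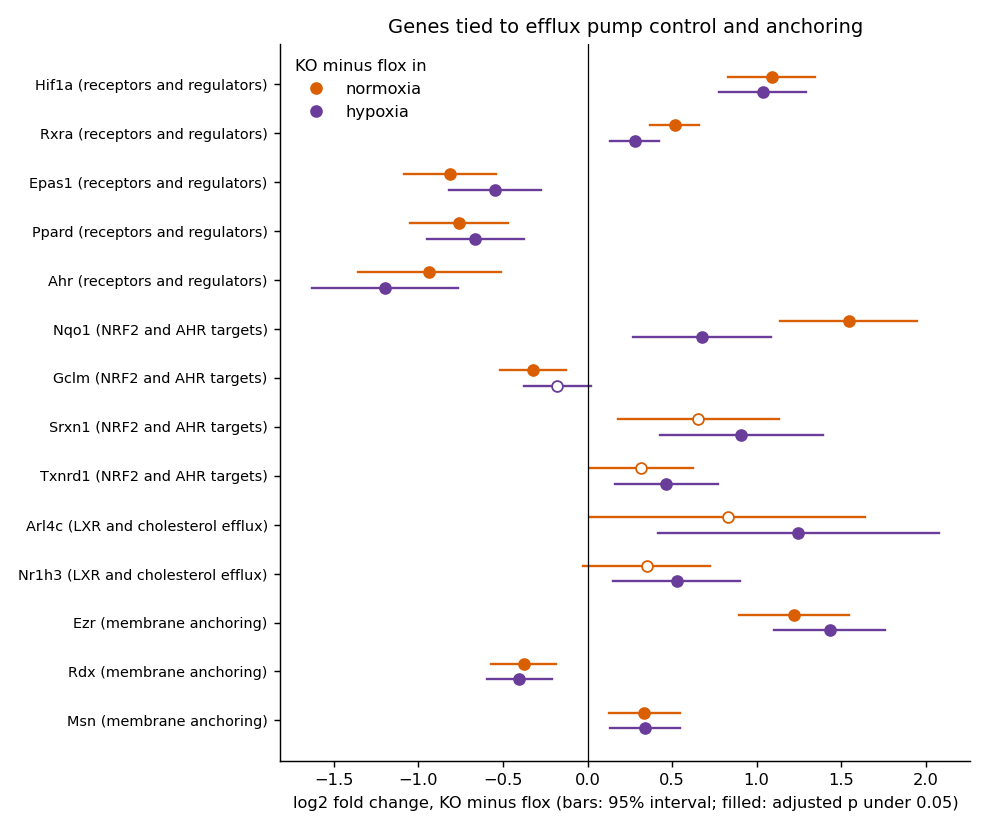
Log2 fold change, KO minus flox, of the named regulators, targets and anchoring genes in normoxia and hypoxia, with 95% intervals and filled points for an adjusted p under 0.05. Hif1a, Nqo1 and Ezr lie to the right of 0 and Epas1, Ppard, Ahr and Rdx to the left in both conditions.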

How the data were processed

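Libraries were made from isolated brain endothelial cells with the Illumina Stranded mRNA kit, per the labels' protocols. Reads were aligned with HISAT2 to GRCm39 and edgeR was used, per the submitters' processing notes; the counting program, annotation and strand setting are not given in the sources used here. The authors deposited whole-number counts and RPKM (1 decimal) for 57010 genes. Symbols (91.3% of identifiers) came from a GRCm38 annotation and promoter windows from RefSeq on GRCm38.p6, which held 5 of the 6 members.

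Genes passing filterByExpr (17531) were TMM-scaled and fitted in 1 model of the 4 groups over 18 libraries (edgeR 4.0.16, R 4.3.3; glmQLFit, robust, with 14 residual degrees of freedom among samples). P-values were adjusted by Benjamini-Hochberg over all genes. Standard errors are the log2 fold change over the square root of F, and log2 CPM use a prior count of 2. DESeq2 1.42.0, limma 3.58.1 on log2(RPKM + 0.1), scaling, filter, covariate, block and leave-one-out alternatives were run, and the scripts were tested on simulated data. Named are the 6 members, Pdcd10, up to 4 passing genes per list and comparison with the smallest adjusted p, and the 3 genes most like each member; Abcg1 was added after its values were seen. Members and lists were chosen with earlier results of these data known.

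Replicate numbers were checked for pairing by the correlation of deviations across genes. Same-numbered normoxia libraries had r = 0.74, 0.39 and 0.89 for numbers 1, 2 and 4. The highest r of these flox libraries with a KO library of another number was 0.71, 0.51 and -0.33. Only number 4 stood clear, and normoxia flox 4 and normoxia KO 4 are the libraries with neuron markers. Same-numbered hypoxia libraries did not deviate together (-0.44 to 0.12), and no label ties the numbers. The data therefore do not settle a pairing, and fits with a block on the numbers are given as alternatives.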

Additional observations from a re-analysis of the deposited data

Results flagged for a closer look

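The values of 28 groups were checked for a single library far from the others, and chance alone marks about 1 in 20 groups. They were the CPM of the 6 pump genes and the ratio of Abcb1a to Abcb1b RPKM, in 4 groups each. Abcb1a in normoxia flox 4, at 1701 CPM, lay far below the other 3 flox libraries (2393 to 2532 CPM), its gap being 0.832 of the range of the group. Abcb1b in the same library, at 78.2 CPM, lay below the other 3 (106 to 108 CPM), with a gap of 0.942 of the range. That library also had the highest summed neuron and astrocyte markers (1790 and 1832 CPM) and the lowest endothelial sum (8572 CPM) of the 18; their part in both low values was not tested. Normoxia results with and without it stand beside the genotype comparison. None of 31 genes checked had an interaction of genotype and oxygen past the threshold.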

How the results depend on the processing

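Over 30 member results (6 genes in 5 comparisons) and 942 alternative values, no called value turned its direction, 903 stayed on their side of the threshold, 10 lost a call and 29 gained one; some uncalled values near 0 changed sign. The number of pump genes called in normoxia KO (1) became 2 with RLE scaling, the stricter filter, DESeq2 or limma on RPKM, 5 with the non-endothelial component as a covariate or without the 2 neuron-marker libraries, and 1 to 4 when 1 library was left out. In hypoxia KO (1) it became 2 with DESeq2, with only the groups compared or with the non-endothelial component, 3 with limma on RPKM or without the neuron-marker libraries, and 1 to 2 with 1 library left out. With hypoxia in flox (1) it became 2 without the neuron-marker libraries (Abcg2 at -0.35 ± 0.09, edgeR adjusted p = 0.0495), 0 with the sex signal or the endothelial marker sum, and 0 to 1 with 1 library left out. With hypoxia in KO (1) it became 2 with the non-endothelial component or the endothelial marker sum. The calls over all genes moved as well. Across the alternatives they ran from 701 to 3928 in normoxia KO (2905 in the main fit) and from 2664 to 5542 in hypoxia KO (3916). With hypoxia they ran from 329 to 959 in flox (492) and from 43 to 617 in KO (260). The cause of these moves was not tested.

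With the replicate block the pump genes called were 0 in normoxia KO within oxygen (where 6 libraries remained and 701 genes passed in place of 2905) and 0 with hypoxia in flox and in KO over all groups, where Abca1 was at 0.71 ± 0.20 (edgeR adjusted p = 0.109) and 0.89 ± 0.18 (adjusted p = 0.0785); no label pairs normoxia with hypoxia libraries, and correlations of equal numbers ran from -0.58 to 0.53. Genes called in normoxia KO were 1793 with the block over all groups and 1751 with the block over the normoxia pairs, a pairing chosen after seeing the data; with hypoxia in KO they were 43, and for the interaction 3. The block changed no other call of a pump gene.

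DESeq2 called 833 genes with hypoxia in flox (560 higher and 273 lower, against 411 and 81), 617 in KO and 145 for the interaction. With the immediate early level as a covariate 959 and 571 passed with hypoxia in flox and KO, and with only the groups compared 107 in KO. The endothelial marker sum, a scaling chosen after seeing the data, gave 168 in KO (32 higher and 136 lower, against 125 and 135) and 27 for the interaction, and in hypoxia KO it split calls 1877 to 1096 (1994 to 1922 by TMM). Limma on RPKM split them 1282 to 3086 in hypoxia KO, with a median of all genes of -0.14, and 1193 to 1304 in normoxia KO. Without 1 library 53 (without hypoxia KO 2) to 523 (without hypoxia KO 1) genes passed with hypoxia in KO, and 28 to 98 for the interaction. Abcc1 levels per length, 1.1 to 2.3 RPKM, were deposited to 1 decimal, which limits their precision.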

Other observations

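Enzymes that conjugate drugs and lipids before the pumps export them gave 13 tested genes of 14, all named from the list by the size of their adjusted p. Mgst1, a membrane glutathione transferase, fell in KO in both oxygen conditions (-0.73 ± 0.17, edgeR adjusted p = 0.00619, and -1.03 ± 0.17, adjusted p = 0.000486) and fell with hypoxia in KO (-0.85 ± 0.16, adjusted p = 0.0157). Its levels went from 20.7 ± 3.66 CPM in normoxia flox (SD, n = 4) to 6.94 ± 1.25 CPM in hypoxia KO (SD, n = 5). Gsta4, which conjugates lipid peroxidation products, rose in normoxia KO (0.43 ± 0.11, adjusted p = 0.0157) and with hypoxia in flox (0.59 ± 0.12, adjusted p = 0.00909). Gstk1 (-0.38 ± 0.11, adjusted p = 0.0244) and Gstp1 (-0.40 ± 0.12, adjusted p = 0.028) fell in hypoxia KO, and Ephx1, the epoxide hydrolase of drug metabolism, fell with hypoxia in flox (-0.65 ± 0.17, adjusted p = 0.0462). In all, 1 rose and 1 fell in normoxia KO and 3 fell in hypoxia KO, where 16.6% and 22.3% of all genes passed.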
